A study of Mus musculus with 6 samples.

Results

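The genes described here are those of the ubiquitin-proteasome system whose symbols begin with Fbxo, Fbxl or Fbxw (F-box proteins), Ube2 or Ube3 (conjugating enzymes and a ligase family), Usp (deubiquitinases), Trim (tripartite motif proteins) or Psma, Psmb, Psmc or Psmd (proteasome subunits). Of the 3162 genes held for each library, 45 met this rule. They were 12 F-box genes, 7 Ube2 or Ube3 genes, 10 Usp genes, 9 Trim genes and 7 proteasome subunits. The GRCm38 annotation lists 284 protein-coding genes with such symbols, and the other members of these families were not analysed here. Expression was measured by bulk RNA sequencing in white adipose tissue of the epididymal depot, which belongs to the visceral fat. All animals were wild-type male C57BL/6J mice aged 16 weeks. In the fed group 3 mice ate normally, and in the fasted group 3 mice had no food for 24 h. Replicate numbers below only name the samples.

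Ubiquitin is attached to proteins by a chain of enzymes. An E1 enzyme activates it, an E2 conjugating enzyme carries it, and an E3 ligase places it on a chosen substrate. F-box proteins are the substrate-recognising parts of SCF (Skp1, cullin, F-box) ligases, and most Trim proteins are RING-type ligases. Usp enzymes remove ubiquitin again. Chains of ubiquitin send proteins to the proteasome, in which a 19S particle recognises and unfolds the substrate and a 20S core cuts it. In skeletal muscle this system is known for the protein loss of fasting, with Fbxo32 (atrogin-1) as a standard marker ligase.

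The genes held appear to be a set that differs between fed and fasted mice, and the sources used here give no rule for it. Levels are in FPKM, fragments scaled to transcript length and to the mapped total of the library. Of the 2999 genes averaging 1 FPKM or more, groups did not overlap in 93.4% (40.8% with fasted above, 52.6% with fasted below), and 90.5% passed the test (limma, Benjamini-Hochberg adjusted p under 0.05), with 41.1% higher and 49.4% lower in fasted tissue. A called member is therefore the usual case here and not by itself a result. Falls of small size were held and rises of small size were almost absent. Only 13 of the 1345 positive log2 ratios of group means lay under 0.45, against 496 of the 1817 negative ones (27.3%) within -0.45. Among the members this was 1 of 24 positive and 10 of 21 negative ratios. Summed FPKM over the genes held was 190382 to 209201 in fed and 180058 to 188061 in fasted libraries, and sequencing depth is unknown. Among genes called lower, fed replicate 2 was the top fed library in 63%, and among genes called higher, fasted replicate 1 was the top fasted library in 62.3%.

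Ligase adaptors, Trim genes and deubiquitinases were mostly higher after the fast. Ube2 and Ube3 genes and proteasome subunits were mostly lower by a small amount, with medians near that of all genes tested. Of the 43 members tested, 23 rose (53.5%), 15 fell (34.9%) and 5 did not pass. Thus 88.4% were called, against 90.5% of all genes tested (41.1% higher and 49.4% lower). All fasted values lay above all fed values in 23 members and below them in 19, and groups overlapped in 1. Over all genes tested these shares were 40.8% above and 52.6% below, so that 93.4% did not overlap. Trim66 and Usp13 had a mean under 1 FPKM and were not tested. Among F-box genes 9 of 12 rose (75%) and 2 fell. Among Usp genes 7 of 9 tested rose (77.8%) and 2 fell. Among Trim genes 6 of 8 tested rose (75%) and 2 fell. Among Ube2 and Ube3 genes 1 of 7 rose (14.3%) and 5 fell (71.4%), and among proteasome subunits none of 7 rose (0) and 4 fell (57.1%). The median log2 fold change was 0.65 for F-box, 0.78 for Usp, 0.60 for Trim, -0.37 for Ube2 and Ube3 and -0.38 for proteasome genes, beside -0.34 over all genes tested. The medians of the last 2 classes thus lay close to that of all genes tested. The share of proteasome subunits that fell (57.1%) was also near that of all genes tested (49.4%). Differences between classes were not tested.

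**Figure D1:**
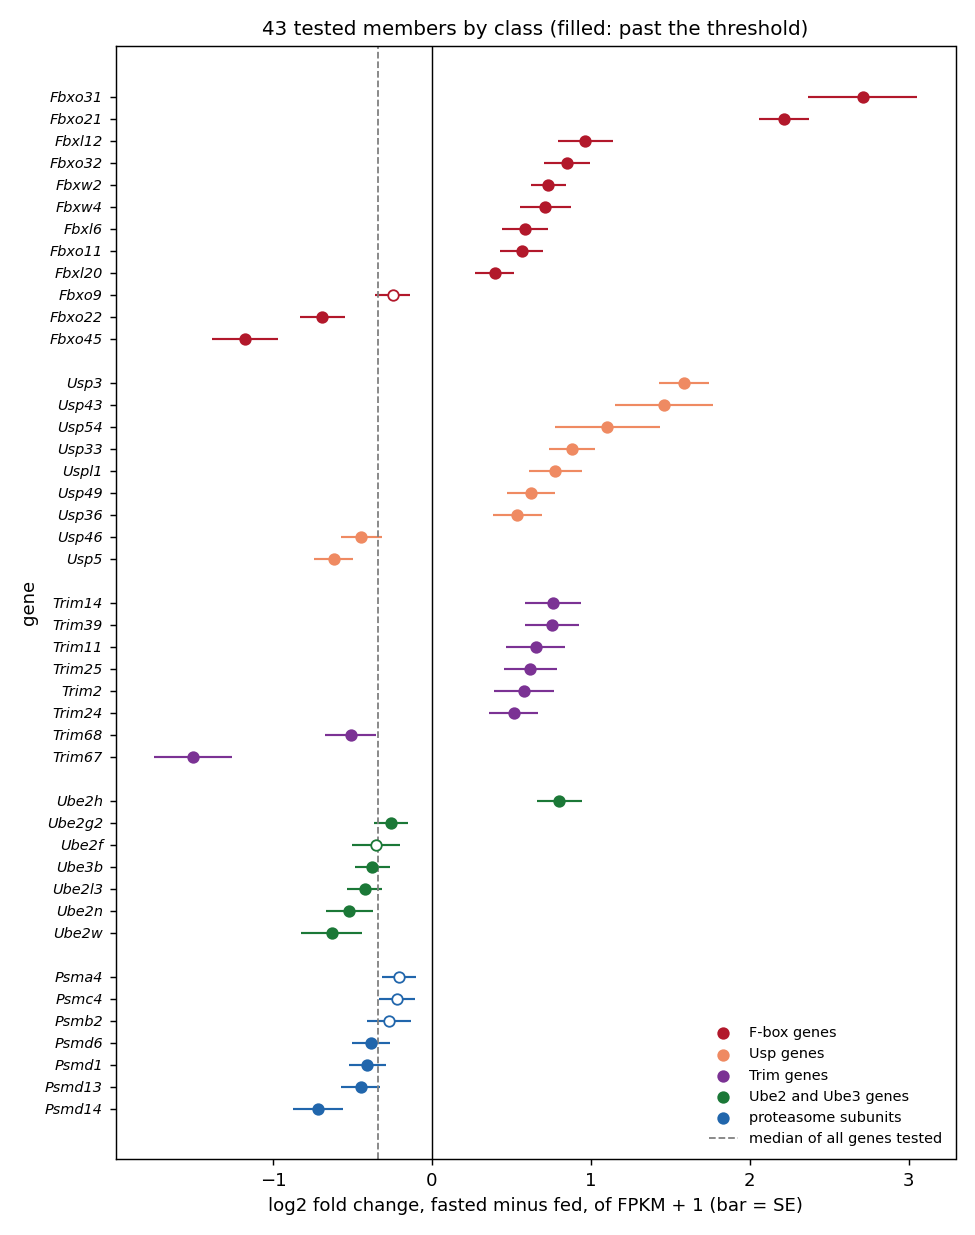
Log2 fold change of FPKM + 1 (horizontal axis, fasted minus fed, with the SE as a bar) for the 43 tested members (vertical axis), grouped and coloured by class. Filled points passed the threshold, open points did not, and the dashed line marks the median of all genes tested (-0.34). F-box, Usp and Trim genes lie mostly to the right of 0, and all Ube2, Ube3 and proteasome genes except Ube2h lie to the left. With quantile scaling Psma4, Psmb2 and Psmc4 cross 0.

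The tissue label was compared with markers of adipocytes and of other cells. Of all genes tested, 41.1% were higher and 49.4% lower, and the marker counts are to be read beside these shares. As the genes held appear to be a set that differs, markers without a difference may be missing. Of 14 adipocyte markers 6 were held and all fell, and their summed level was 2147 to 2738 FPKM in fed and 674 to 1034 FPKM in fasted libraries. Of 11 endothelial markers 4 were held and all rose (176 to 217 FPKM in fed and 283 to 414 FPKM in fasted libraries). Of 11 fibroblast and progenitor markers 5 were held, of which 3 rose and 2 fell (811 to 1085 FPKM in fed and 1270 to 1872 FPKM in fasted libraries). The 2 macrophage markers held, of 14, both fell (86.8 to 200 FPKM in fed and 40.8 to 88.1 FPKM in fasted libraries). With median-ratio and with quantile scaling, 1 fall passed in each of the fibroblast and macrophage lists, and the 6 adipocyte falls all passed. Of all genes, 26.2% and 38.9% were then lower. No marker held was at 0 in every library, and no mesothelial marker was held. The lymphocyte marker Cd3e was at 0.15 to 0.23 FPKM in fed and 0.89 to 0.98 FPKM in fasted libraries, below the filter. The epididymal gene Adam7 was listed at 2.05 FPKM in fed replicate 2 and at 0.00 to 0.03 in the other libraries. Cd3e and Adam7 are named because each was the only held gene of its list. In bulk tissue, fewer cells of a type and less RNA per cell cannot be told apart, and the part of cell makeup in the results that follow was not tested.

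F-box genes held the largest rises of the tested members on the log2(FPKM + 1) scale. Fbxo31, which directs SCF ligase to substrates such as cyclin D1, was at 18.6, 10.2 and 18.2 FPKM in the fed libraries and at 107, 162 and 66.3 FPKM in the fasted libraries. The lowest fasted value was thus well above the highest fed value. Its mean went from 15.7 ± 4.76 to 112 ± 47.9 FPKM (SD, n = 3), or 2.71 ± 0.34 as log2 fold change with its SE (limma adjusted p = 0.00126). Fasted replicate 2 was highest, and the log2 fold change was 2.40 to 3.04 with any 1 library left out. The gene (ENSMUSG00000052934) is on chromosome 8 from 121549440 to 121578806 (GRCm38, minus strand).

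Fbxo21, another SCF substrate receptor, was more even among the fasted mice. Its values were 24.2, 18.0 and 22.7 FPKM in fed and 108, 88.3 and 115 FPKM in fasted libraries. This was a 4.8-fold higher mean, 2.21 ± 0.16 on the log2 scale, and the smallest adjusted p of any member (limma adjusted p = 0.000314). Fbxo21 (ENSMUSG00000032898) is on chromosome 5 from 117976730 to 118010201 (GRCm38, plus strand). In fasted tissue Fbxo31 and Fbxo21 had the highest mean FPKM of the 12 F-box genes, a unit that is per transcript length, and in fed tissue Fbxo22 and Fbxw2 had.

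The starts of these 2 genes are shown because their rises were the largest of the tested members on the log2(FPKM + 1) scale. The sequences are the 250 bases before the RefSeq start site (GRCm38.p6), printed 5′ to 3′ on the gene's strand, at chr8:121578807-121579056 (minus) for Fbxo31 and chr5:117976520-117976769 (plus) for Fbxo21. Capitals mark a match to TGACNNNGC or its reverse complement GCNNNGTCA, the core of the antioxidant response element bound by the factors NRF1 and NRF2.
Fbxo31: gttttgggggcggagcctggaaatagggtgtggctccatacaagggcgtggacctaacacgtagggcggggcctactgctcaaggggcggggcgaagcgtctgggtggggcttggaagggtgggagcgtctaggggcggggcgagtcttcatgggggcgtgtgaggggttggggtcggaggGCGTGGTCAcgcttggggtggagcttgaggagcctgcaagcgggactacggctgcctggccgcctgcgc
Fbxo21: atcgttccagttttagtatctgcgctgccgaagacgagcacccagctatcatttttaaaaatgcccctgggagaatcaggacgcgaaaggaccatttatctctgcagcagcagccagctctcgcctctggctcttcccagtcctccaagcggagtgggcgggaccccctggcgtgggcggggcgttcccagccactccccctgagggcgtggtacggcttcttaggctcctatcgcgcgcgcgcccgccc
The match in Fbxo31 begins 69 bases before the start, and these letters are not in the Fbxo21 window. Promoter windows were found for 32 of the 45 members, 45 windows in all. The same core occurred in 4 of 12 windows of F-box genes (33.3%) and in 2 of 6 windows of Usp genes (33.3%). The 2 Usp genes were Usp36, which rose, and Usp13, which was not tested and was lower in fasted tissue. Trim genes had it in 1 of 14 windows (7.14%), and Ube2 and Ube3 genes in none (0) of 7. The share was 7 of the 45 member windows (15.6%), beside 10.2% of all 32851 mouse windows of this length. A FOXO site (GTAAACA, either strand) occurred in 2 of the 45 member windows (4.44%), those of Ube2h and Trim67, beside 3.17% of all windows. None (0) of the 12 F-box windows held it, and at so low a share 12 windows are too few to show a lack. These matches are descriptions of letters and not of binding.

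Fbxo32, the atrogin-1 gene, was low in this tissue and rose. Its values were 1.93, 1.88 and 2.12 FPKM in fed and 4.77, 3.97 and 4.38 FPKM in fasted libraries. The groups stood apart with little spread, a 2.21-fold higher mean, or 0.85 ± 0.14 on the log2 scale (limma adjusted p = 0.00289). In fasted tissue its mean of 4.37 FPKM was the lowest of the 12 F-box genes, and that of Fbxo31 (112 FPKM) the highest. Des, the 1 of 10 skeletal muscle markers held, moved the same way (9.73 to 10.4 against 12.6 to 18.3 FPKM), and its part in the rise of Fbxo32 was not tested. Fbxo32 is on chromosome 15 from 58175879 to 58214932 (GRCm38, minus strand), where its exons overlap those of the antisense gene Gm15943.

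Other F-box receptors rose less. Fbxl12, whose leucine-rich repeats bind substrates, went from 9.15, 9.30 and 10.3 FPKM to 25.3, 18.1 and 16.5 FPKM (log2 fold change 0.96 ± 0.17). Fbxw2, of the WD-repeat group, went from 36.4, 34.1 and 36.4 FPKM to 58.6, 63.5 and 57.6 FPKM (0.73 ± 0.11). Both genes had no overlap between groups, and Fbxw2 was the steadier across mice. Fbxw4 (0.71 ± 0.16), Fbxl6 (0.59 ± 0.14), Fbxo11 (0.56 ± 0.14), the receptor for BCL6, and Fbxl20 (0.40 ± 0.12) also rose. Fbxl20 missed the threshold without fed replicate 3 (limma adjusted p = 0.0534) and without fasted replicate 2 (0.0519).

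The F-box genes that fell were Fbxo45 and Fbxo22. Fbxo45, which works with the ligase MYCBP2, was at 27.9, 17.8 and 23.3 FPKM in fed and 9.97, 7.37 and 11.4 FPKM in fasted libraries (-1.18 ± 0.21; limma adjusted p = 0.0034). Fbxo22, a receptor for KDM4 demethylases and BACH1, was at 44.9, 55.6 and 53.3 FPKM and then at 35.5, 30.7 and 27.9 FPKM (-0.69 ± 0.14). Every fasted value of both lay under every fed value. Fbxo9 was at 23.3 to 25.1 FPKM in fed and 19.8 to 21.5 FPKM in fasted tissue and did not pass (-0.25 ± 0.11; limma adjusted p = 0.0626).

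**Figure D2:**
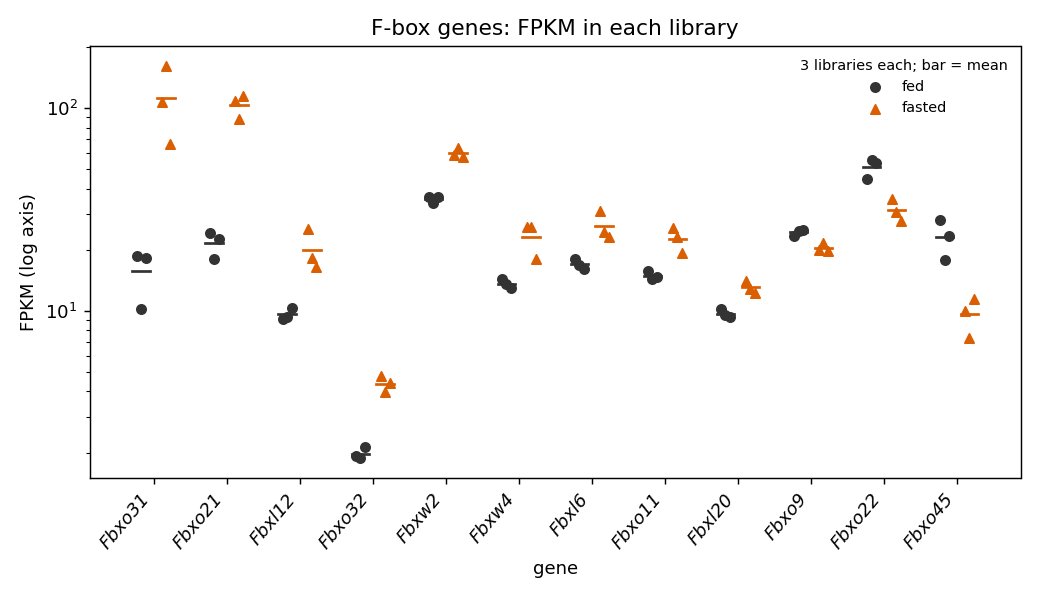
FPKM (vertical log axis) of the 12 F-box genes (horizontal axis, ordered by fold change) in each of 3 fed (circles) and 3 fasted (triangles) libraries, with the group means as bars. Fbxo31 and Fbxo21 lie at 10.2 to 24.2 FPKM in fed and 66.3 to 162 FPKM in fasted libraries.

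Deubiquitinases that rose were led by Usp3, which removes ubiquitin from histones H2A and H2B. Its values were 9.21, 6.38 and 7.14 FPKM in fed and 24.0, 27.4 and 22.5 FPKM in fasted libraries. This 3.25-fold higher mean was 1.59 ± 0.16 on the log2 scale (limma adjusted p = 0.000621), with replicates close together in both groups. Usp3 (ENSMUSG00000032376) is on chromosome 9 from 66514637 to 66593142 (GRCm38, minus strand). Usp43 was at 0.98, 0.76 and 0.73 FPKM in fed and at 7.43, 2.97 and 2.76 FPKM in fasted libraries (1.46 ± 0.31). Fasted replicate 1 stood above the other 2, and the value was 1.09 without it. As its fed mean was 0.823 FPKM, Usp43 passed the filter on low values through the fasted group alone.

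Usp33, which acts on the β2-adrenergic receptor among other substrates, was at 15.0, 14.8 and 13.2 FPKM in fed and 30.9, 28.5 and 22.97 FPKM in fasted libraries (0.88 ± 0.14; limma adjusted p = 0.00269). Usp54 was at 3.99, 2.66 and 5.08 FPKM and then at 7.19, 16.2 and 6.81 FPKM (1.10 ± 0.33). Fasted replicate 2 was far above the others for Usp54, whose log2 fold change was 0.73 without it, and the gene missed the threshold without fed replicate 2 (limma adjusted p = 0.0531). Uspl1 (0.78 ± 0.16), a SUMO and not a ubiquitin protease, Usp49 (0.62 ± 0.15), an H2B deubiquitinase, and the nucleolar Usp36 (0.54 ± 0.15) rose as well. Uspl1 shares exonic sequence with Hmgb1 on the opposite strand, which was also among the genes held.

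The falls among deubiquitinases were those of Usp5 and Usp46. Usp5, or isopeptidase T, takes apart free ubiquitin chains and was the most abundant Usp gene held in fed tissue. It was at 41.7, 47.3 and 38.1 FPKM in fed and 26.6, 26.3 and 28.5 FPKM in fasted libraries (-0.62 ± 0.12; limma adjusted p = 0.00478). Usp46 was at 8.68, 10.1 and 8.61 FPKM and then at 6.29, 6.28 and 6.72 FPKM (-0.45 ± 0.13). Usp13, a close relative of Usp5, was at 0.55, 0.90 and 0.61 FPKM in fed and 0.30, 0.21 and 0.34 FPKM in fasted libraries, too low for the test, with every fasted value under every fed value.

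The rises of Trim genes were small and alike. The 6 log2 fold changes lay between 0.51 and 0.76, beside a median of 0.79 over all genes called higher. Smaller rises were almost absent from the genes held, which limits this range from below. Trim14, which has no RING domain and acts in antiviral signalling, was at 26.3, 39.3 and 31.1 FPKM in fed and 58.9, 46.4 and 59.5 FPKM in fasted libraries (0.76 ± 0.18; limma adjusted p = 0.00732). Its exons overlap those of Nans on the opposite strand, which was also among the genes held. Trim39 was at 11.4, 9.73 and 12.0 FPKM and then at 23.2, 19.7 and 15.5 FPKM (0.76 ± 0.17). Trim11 was at 16.5, 18.98 and 17.6 FPKM and then at 37.0, 27.5 and 22.2 FPKM (0.65 ± 0.19). Trim25, the ligase of the RNA sensor RIG-I, was at 12.6, 11.1 and 11.8 FPKM and then at 23.8, 16.3 and 16.8 FPKM (0.62 ± 0.17). Trim2 (0.58 ± 0.19) and the transcriptional cofactor Trim24 (0.51 ± 0.15) completed the rises. In 5 of these 6 genes fasted replicate 1 was the highest library. Without it Trim2 missed the threshold (limma adjusted p = 0.0528), as it did without fed replicate 3 (0.0582).

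Trim67 fell most of all members on the log scale. It was at 2.62, 4.65 and 2.0 FPKM in fed and 0.49, 0.39 and 0.30 FPKM in fasted libraries (log2 fold change -1.50 ± 0.25; limma adjusted p = 0.00277). Its fasted mean was 0.393 FPKM, so that it passed the filter on low values through the fed group alone. Trim68 was at 12.1, 14.8 and 16.1 FPKM and then at 10.8, 8.23 and 10.2 FPKM (-0.51 ± 0.16), and it missed the threshold without fed replicate 3 (limma adjusted p = 0.0615) or fasted replicate 2 (0.0672). Trim66 was listed at 0.02, 0.01 and 0.02 FPKM in fed libraries, near the smallest value in the files, and at 0.40, 0.37 and 0.12 FPKM in fasted libraries. Of 29 interferon-stimulated genes listed, to which several Trim genes are often counted, 8 were held. None rose (0), 5 fell and 3 did not pass, where 41.1% of all genes tested were higher and 49.4% lower. With median-ratio scaling 1 fall passed and with quantile scaling 4 falls (26.2% and 38.9% of all genes were then lower). Zbp1 (-0.71 ± 0.15) was among those that fell.

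**Figure D3:**
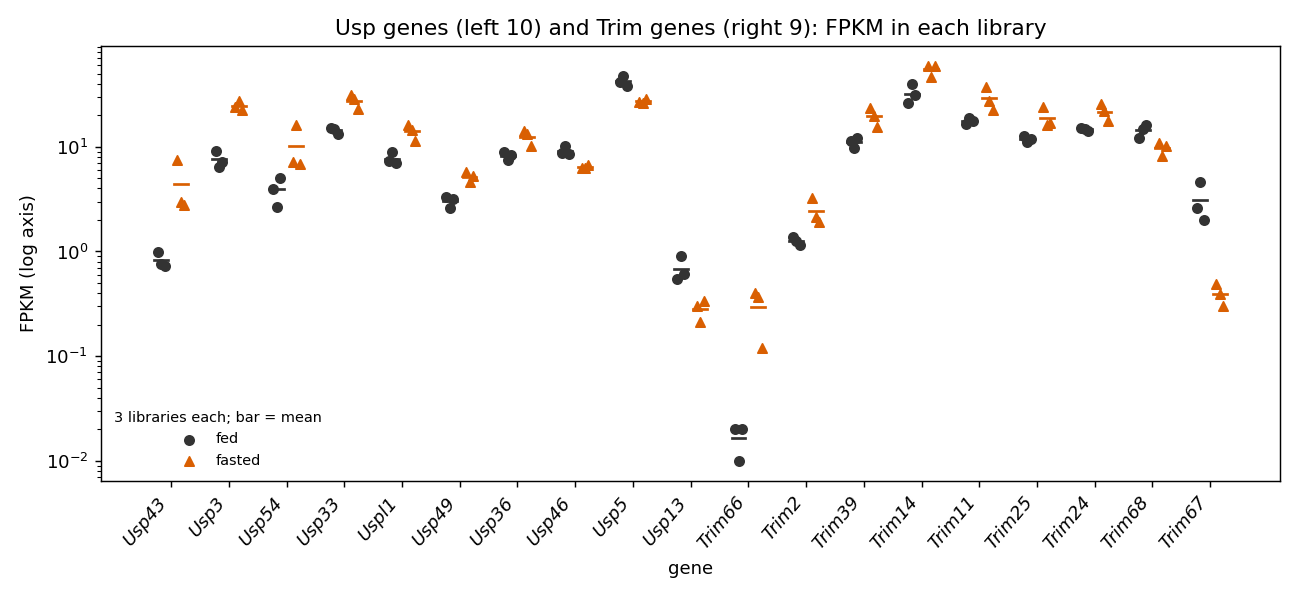
FPKM (vertical log axis) of the 10 Usp and 9 Trim genes (horizontal axis, each class ordered by the ratio of group means) in each of 3 fed (circles) and 3 fasted (triangles) libraries, with group means as bars. Usp3 lies at 6.38 to 9.21 FPKM in fed and 22.5 to 27.4 FPKM in fasted libraries, and Usp13, Trim66 and Trim67 are low in at least 1 group.

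Of the 7 Ube2 and Ube3 genes held only Ube2h rose. Ube2h, the partner E2 of the CTLH ligase complex, was at 36.6, 39.1 and 45.3 FPKM in fed and 82.3, 63.6 and 67.8 FPKM in fasted libraries. No value overlapped, and the log2 fold change was 0.80 ± 0.14 (limma adjusted p = 0.00347). Ube2h is on chromosome 6 from 30211289 to 30304539 (GRCm38, minus strand). In fed tissue Ube2l3, Ube2n and Ube2g2 had higher means than Ube2h, and in fasted tissue Ube2h had the highest mean of the 7 genes.

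The other Ube2 genes and Ube3b were lower by modest amounts. Ube2w, which modifies protein amino termini, was at 20.7, 34.4 and 22.3 FPKM in fed and 16.2, 16.1 and 15.4 FPKM in fasted libraries (-0.63 ± 0.19; limma adjusted p = 0.0167). Fed replicate 2 was the outlying library for Ube2w, and the log2 fold change was -0.41 without it. Ube2n, which builds K63-linked chains, was at 59.0, 81.6 and 70.3 FPKM and then at 49.1, 51.4 and 44.8 FPKM (-0.52 ± 0.15). Ube2l3, which serves HECT and RBR ligases, was at 71.4, 77.2 and 72.8 FPKM and then at 50.7, 56.7 and 57.1 FPKM (-0.42 ± 0.11). Ube3b, a HECT ligase and not a conjugating enzyme, was at 32.2, 32.4 and 34.2 FPKM and then at 23.8, 25.1 and 26.7 FPKM (-0.37 ± 0.11). Ube2g2, the E2 of ER-associated degradation, was at 46.3 to 50.3 FPKM and then at 38.6 to 41.7 FPKM (-0.26 ± 0.11; limma adjusted p = 0.0472). This call was lost with each of the 6 libraries left out in turn (limma adjusted p from 0.0658 to 0.125). Ube2f, a NEDD8 conjugating enzyme, was at 30.1, 40.8 and 33.4 FPKM and then at 26.2, 29.8 and 24.6 FPKM and did not pass (-0.35 ± 0.15; limma adjusted p = 0.0509). It passed without fed replicate 1 (0.0343) and with a filter of at least 5 FPKM (0.0498). Summed over the 7 genes, FPKM was 296.4, 354.6 and 328.6 in fed and 286.9, 284.4 and 277.1 in fasted libraries, a ratio of means of 0.866. For 4 of these 7 genes the log2 ratio of means lay within -0.45, where a rise of that size would hardly have been held.

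All 7 proteasome subunits held had lower mean FPKM as deposited in fasted tissue, but only the 4 non-ATPase subunits of the 19S particle passed. With median-ratio scaling only Psmd14 of these 4 passed, and Psmd13 (limma adjusted p = 0.0745), Psmd1 (0.16) and Psmd6 (0.193) did not. Psmd14 (Rpn11), the deubiquitinase of the 19S lid, was at 43.8, 37.0 and 35.4 FPKM in fed and 19.02, 24.45 and 26.5 FPKM in fasted libraries. Its log2 fold change of -0.71 ± 0.16 was the deepest of the 7 (limma adjusted p = 0.00646). Psmd14 is on chromosome 2 from 61711694 to 61800376 (GRCm38, plus strand). The lid subunit Psmd13 (Rpn9) was at 46.9, 56.1 and 46.4 FPKM and then at 35.3, 34.6 and 38.4 FPKM (-0.45 ± 0.12). Psmd1 (Rpn2), a scaffold of the 19S base, was at 48.0, 42.9 and 40.5 FPKM and then at 32.3, 32.1 and 33.8 FPKM (-0.41 ± 0.12). The lid subunit Psmd6 (Rpn7) was at 47.7, 48.4 and 42.0 FPKM and then at 34.5, 38.2 and 32.6 FPKM (-0.38 ± 0.12), and it missed the threshold without fed replicate 1 (limma adjusted p = 0.0532) or fasted replicate 3 (0.0543).

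The 20S core subunits and the ATPase differed least. Psma4, an α-ring subunit, was at 96.3 to 97.9 FPKM in fed and 78.8 to 87.0 FPKM in fasted tissue (-0.21 ± 0.11; limma adjusted p = 0.0871). Psmb2, a β-ring subunit, was at 121, 107 and 91.2 FPKM and then at 86.6, 94.9 and 81.4 FPKM, the only tested member whose groups overlapped (-0.27 ± 0.14; limma adjusted p = 0.0914). Without fed replicate 3 it passed (-0.38; 0.0491). Psmc4 (Rpt3), an ATPase of the 19S base, was at 63.2 to 70.3 FPKM and then at 52.3 to 60.4 FPKM (-0.22 ± 0.11; limma adjusted p = 0.0958). With quantile scaling the sign of these 3 turned, to log2 fold changes of 0.07, 0.01 and 0.02. Summed over the 7 subunits, FPKM was 474.1, 454.6 and 415.4 in fed and 352.7, 370.2 and 343.8 in fasted libraries, a ratio of means of 0.794. For 5 of the 7 the log2 ratio of means lay within -0.45, a size at which a rise would hardly have been held.

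The starts of the subunit with the deepest fall and of the one with the smallest difference are shown for comparison, as 250 bases before the RefSeq start (GRCm38.p6, plus strand), at chr2:61711444-61711693 for Psmd14 and chr9:54950609-54950858 for Psma4. Capitals mark an E-box, CACGTG.
Psmd14: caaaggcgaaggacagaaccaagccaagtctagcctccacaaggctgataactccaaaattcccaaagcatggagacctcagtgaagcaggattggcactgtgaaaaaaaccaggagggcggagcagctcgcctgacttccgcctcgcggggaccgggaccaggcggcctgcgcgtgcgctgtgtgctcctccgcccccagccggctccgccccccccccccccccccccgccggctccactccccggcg
Psma4: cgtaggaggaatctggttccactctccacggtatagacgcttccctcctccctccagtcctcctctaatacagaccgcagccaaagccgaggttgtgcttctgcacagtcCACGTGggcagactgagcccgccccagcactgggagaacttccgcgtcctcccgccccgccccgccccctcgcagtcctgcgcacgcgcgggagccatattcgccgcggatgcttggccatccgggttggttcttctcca
The E-box of Psma4 begins 140 bases before the start, and such a box occurred in 6.02% of all windows. The antioxidant response core, through which NRF1 is known to drive proteasome genes, occurred in none (0) of the 6 proteasome windows found, which says only that these letters are not in these bases.

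**Figure D4:**
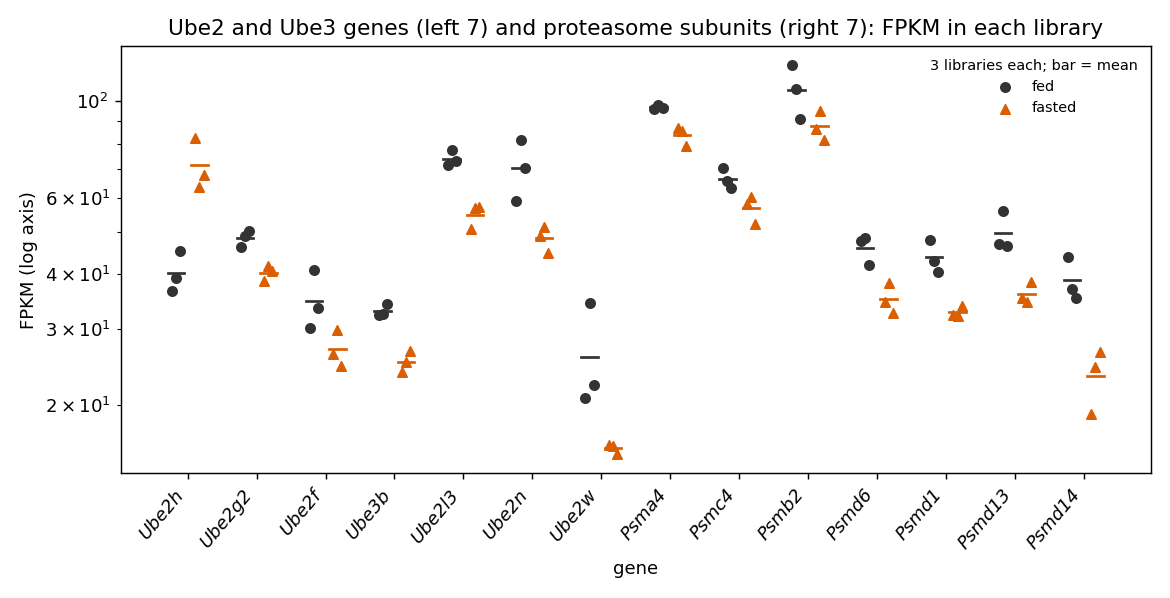
FPKM (vertical log axis) of the 7 Ube2 and Ube3 genes and the 7 proteasome subunits (horizontal axis, each class ordered by fold change) in each of 3 fed (circles) and 3 fasted (triangles) libraries, with group means as bars. Ube2h alone is higher in fasted libraries, and the groups of Psmb2 overlap (81.4 to 94.9 against 91.2 to 121 FPKM).

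Scaling of the libraries changed the calls of many falls. Median-ratio size factors over the genes held were 1.03 to 1.14 in fed and 0.911 to 0.953 in fasted libraries, so this scaling moved fold changes upward, and the median over all genes tested went from -0.34 to -0.15. With quantile scaling it was -0.21. A shift in this direction tends to keep rises and to end falls, so that keeping the rises is no sign of their stability. Both scalings were computed on the genes held and assume that most genes, or the spread of levels, are alike between libraries. A set in which most genes differ need not meet this, so a fall lost under them is not shown to be absent. The 23 rises passed under both scalings (41.3% and 40.2% of all genes were then higher). Of the 15 falls, 6 remained with median-ratio scaling and 10 passed with quantile scaling (26.2% and 38.9% of all genes were then lower). In all, 67.6% and 79.1% of genes passed with these scalings. The falls kept under every scaling, filter, pseudocount and trend setting that tested them were those of Fbxo22, Fbxo45, Psmd14, Trim67, Ube2w and Usp5. Trim67 passed the filter on low values through the fed group alone, and the filter of at least 5 FPKM did not test it. With median-ratio scaling 1 Ube2 gene and 1 proteasome subunit fell, and the median log2 fold changes of these 2 classes were -0.17 and -0.18, beside -0.15 for all genes tested.

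**Figure D5:**
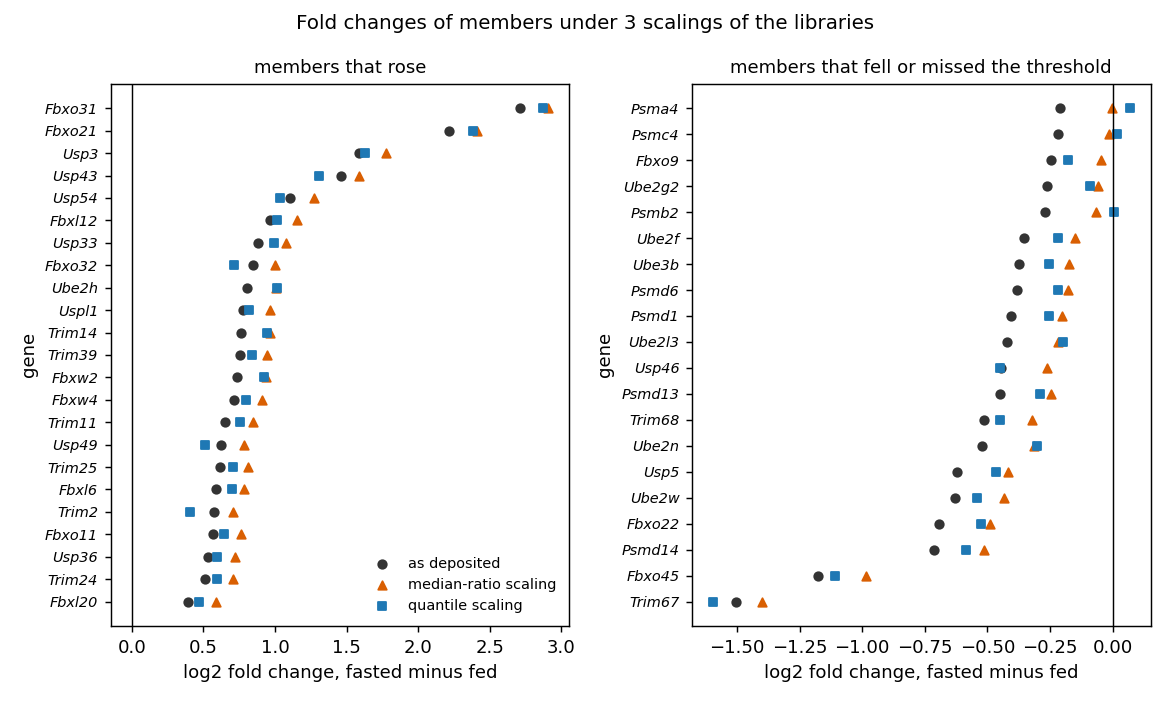
Log2 fold change (horizontal axes, fasted minus fed) of the members that rose (left) and of those that fell or missed the threshold (right) from FPKM as deposited (circles), after median-ratio scaling (triangles) and after quantile scaling (squares). All 23 rises stay to the right of 0, whereas Psma4, Psmb2 and Psmc4 cross 0 with quantile scaling.

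Adjusted over all 22028 annotated protein-coding genes, 11 members were higher and 5 lower, against 34.9% of genes passing (18.4% higher, 16.5% lower). When each gene not tested here was given the largest possible p, 5 members passed over all 55536 annotated genes, all of them higher in fasted tissue, against 12.1% of genes passing (5.74% higher, 6.4% lower). They were Fbxo31 (limma adjusted p = 0.0233), Fbxo21 (0.00582), Fbxw2 (0.0367), Usp3 (0.0115) and Usp33 (0.0498). Fbxo32 narrowly missed (0.0535). The nearest of the falls was Trim67 (0.0513), which passed the filter on low values through the fed group alone.

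Members that rose and members that fell also differed in level. The 23 that rose had a median fed level of 11.8 FPKM, and the 15 that fell had 42.3 FPKM. The same order held among all genes tested, with 8.54 FPKM for those called higher and 24.6 FPKM for those called lower. The longest annotated coding transcript had a median length of 4183 bases for the rises and 3015 bases for the falls, beside 3241 and 2842 bases over all genes called. Within the fasted group, replicate 1 had the highest value for 17 of the 23 rises (73.9%) and replicate 3 the lowest for 17, beside 62.3% and 71.8% of all genes called higher. Of the 15 falls, 9 had their top fed value in fed replicate 2 (60%), beside 63% of all genes called lower.

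Other genes of the pathway were taken from lists of symbols outside the families above. Of all genes tested, 41.1% were higher and 49.4% lower, and the list counts are to be read beside these shares. RING ligases outside the Trim family went mostly up, with 13 rises, 6 falls and 2 that did not pass among 21 held (median 0.56). Rnf125, a ligase of antiviral sensors, was at 28.4, 32.0 and 52.1 FPKM in fed and 122, 129 and 109 FPKM in fasted libraries (1.70 ± 0.22). March6, a ligase of the ER membrane that degrades squalene epoxidase, rose by 0.71 ± 0.12 on the log2 scale, and Rnf185 by 0.98 ± 0.17. Znrf2 was at 48.5, 31.6 and 47.3 FPKM and then at 14.1, 12.8 and 16.65 FPKM (-1.47 ± 0.19). HECT and related ligases had 4 rises and 2 falls among 7, with Ubr2 (0.72 ± 0.14), an N-degron ligase, among the rises. Of these 2 lists, 1 fall and no fall (0) passed with median-ratio scaling, under which 26.2% of all genes were lower.

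Cullin partners and substrate adaptors had 3 rises and no fall (0) among 7 held, of which 4 did not pass. Of all genes tested, 41.1% were higher and 49.4% lower. Cul4b (0.66 ± 0.12), Ddb2 (0.91 ± 0.20) and Crbn (0.52 ± 0.12), all parts of CUL4 ligases, were the 3 rises of this list. Proteasome activators, assembly factors and regulators had no rise (0) and 5 falls among 6 held, and 1 fall passed with median-ratio scaling. Nfe2l1, which encodes NRF1, was at 139, 108 and 108 FPKM in fed and 78.1, 84.5 and 93.7 FPKM in fasted libraries (-0.46 ± 0.14). The assembly factor Pomp (-0.32 ± 0.11) and the shuttle factor Ubqln1 (-0.52 ± 0.14) fell as well. Rps27a, whose product joins ubiquitin to a ribosomal protein, rose (0.57 ± 0.15). Among E1 enzymes 3 of 5 fell, and the NEDD8 activating subunit Nae1 rose (0.50 ± 0.12). Deubiquitinases outside the Usp family had 2 rises, Otud1 and the proteasome-bound Uchl5, and 2 falls, Mpnd and Tnfaip3 (A20).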

How the data were processed

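Each of 6 libraries (3 fed, 3 fasted mice) had a table of FPKM per gene deposited by the authors, 1 library per table. RSEM and the builds mm10 and GRCm38.p6 are named in the submitters' processing notes. The aligner, the annotation release and the choice of the 3162 genes were not given in the sources used here. Groups came from the labels. FPKM holds no read counts, so depth is unknown and no counting interval is given.

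From the deposited FPKM, log2(FPKM + 1) was computed and all 2999 genes averaging 1 FPKM or more across libraries were fitted with limma 3.58.1 (R 4.3.3), with a mean-variance trend. P-values were two-sided and Benjamini-Hochberg adjusted over the 2999 genes, with a threshold of 0.05. Fold changes are fasted minus fed on the log2(FPKM + 1) scale, which understates changes of low genes, and ± beside them is the SE. The genes held are nearly all ones that differ, so an adjustment over them alone is lenient, and it was repeated over all annotated protein-coding genes and over all annotated genes. P-values set the difference between groups against the spread among these samples within groups, with each gene's variance drawn toward the trend over all genes fitted. The fit was tested on simulated data. Of the identifiers, 3161 matched the GRCm38 annotation. Strand of counting is not given, and 17 members overlap exons on the opposite strand. Exons are shared with another gene on the same strand in 5 members (Fbxl20, Trim67, Ube2g2 and, also among the 17, Psmd1 and Usp49).

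All members could be named. Values per library were set for Fbxo31, Fbxo32 and up to 4 rises and 4 falls with the largest change per class. Genes that are no members came from fixed lists, up to 4 per list with the smallest p. Members and lists were chosen with earlier results of these data known. Some genes of these lists are not reported here.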

Additional observations from a re-analysis of the deposited data

How the results depend on the processing

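The 23 rises passed under each scaling, low-value filter that kept the gene, pseudocount and trend setting, and 20 of them with each library left out in turn (Fbxl20, Trim2 and Usp54 did not). Of the 15 falls, 6 passed under all those settings and 12 with each library left out (Psmd6, Trim68 and Ube2g2 did not). With a filter of at least 5 FPKM, which tests fewer genes, 1 Trim gene was lower and Ube2f passed as lower (limma adjusted p = 0.0498). With median-ratio scaling 6 members were lower, 1 each of the Ube2 and Ube3, Usp, Trim and proteasome genes, and 8 genes of the pathway lists. The medians were then -0.174 for Ube2 and Ube3, 0.966 for Usp and -0.18 for proteasome genes. With quantile scaling 2 Ube2 or Ube3 genes, 2 proteasome subunits and 16 list genes were lower, with medians of -0.219 and -0.218, and the sign turned for Psma4 (0.068), Psmb2 (0.0053) and Psmc4 (0.0165). The cause was not tested. Adjusted over all protein-coding genes, 1047 genes passed, with 11 members higher and 5 lower: 5 F-box genes higher, 0 Ube2 or Ube3 genes lower, 4 Usp genes higher and 1 lower, 1 Trim gene higher and 1 lower, 1 proteasome subunit lower, and 13 list genes higher and 5 lower. Adjusted over all annotated genes, 364 genes passed, with 5 members higher and 0 lower: 3 F-box genes higher and 0 lower, 0 Ube2 or Ube3 genes higher and 0 lower, 2 Usp genes higher and 0 lower, 0 Trim genes higher and 0 lower, 0 proteasome subunits lower, and 2 list genes higher and 3 lower. These 2 adjustments count more genes than were tested. With 1 library left out, the median ranged from -0.446 to -0.338 for Ube2 and Ube3 genes and from 0.675 to 0.91 for Usp genes, 1 to 2 Trim genes were lower, and 15 to 19 list genes were lower. No paired analysis was possible because the labels give no replicate numbers that tie a fed to a fasted mouse. Depth is unknown, so how far counting error limits low genes such as Usp13, Trim66 and Trim67 cannot be given.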

Other observations

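Genes of ER-associated degradation, which sends misfolded secretory proteins to the proteasome, were divided. Of the 3 held, 1 rose and 2 fell, beside 41.1% and 49.4% of all genes tested. Under median-ratio and under quantile scaling 1 fall passed. Derl3, a channel-forming derlin, was at 1.07, 1.31 and 1.07 FPKM in fed and 4.09, 3.41 and 4.53 FPKM in fasted libraries, and it rose (1.22 ± 0.16; limma adjusted p = 0.00136). Edem1, which helps to pick misfolded glycoproteins, was at 20.3, 25.0 and 19.7 FPKM and then at 9.39, 9.14 and 9.96 FPKM, and it fell (-1.10 ± 0.13; limma adjusted p = 0.00112). Neither gene had overlapping groups, and both passed over all annotated genes (0.0252 and 0.0207). Erlec1 fell by less (-0.33 ± 0.12), as did Svip (-0.66 ± 0.14), a small inhibitor of the degradation ATPase VCP.

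Among ubiquitin-like modifiers and their enzymes 3 fell and 1 rose of the 4 held, beside 49.4% and 41.1% of all genes tested. With median-ratio scaling 1 fall passed, beside 26.2% of all genes. Nedd8, which activates cullins, was at 145, 182 and 140 FPKM in fed and 120, 106 and 111 FPKM in fasted libraries (-0.46 ± 0.14). Ufm1 (-0.51 ± 0.13) and the NEDD8 protease Senp8 (-0.52 ± 0.18) also fell. Fau, which joins a ubiquitin-like protein to a ribosomal protein, rose (0.63 ± 0.16), as did Rps27a above. Of the COP9 signalosome, which removes NEDD8 from cullins, Cops2 rose (0.58 ± 0.12) and Cops5, its catalytic subunit, fell (-0.33 ± 0.12). The fall of Cops5 did not pass with median-ratio or with quantile scaling.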
